A study of Drosophila melanogaster with 2 samples.

Results

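The 555 peaks described here are the binding regions of Kah at divergent promoters, that is, at places where 2 protein-coding genes start close together on opposite strands. They were taken from the 4105 peaks of the deposited optimal IDR list, which holds the peaks kept by the irreproducible discovery rate, a measure of how well peaks rank alike in replicates. A peak was a member when its summit, the base of highest signal, had the start site of a plus-strand transcript within 500 bp and also that of a minus-strand transcript of another gene. The 555 members lay at 526 gene pairs and touched 1050 genes. Of the remaining IDR peaks, 1517 lay within 500 bp of protein-coding start sites on 1 strand only, called one-direction promoters here, and 2033 lay away from promoters. The pooled list held 24795 further candidates over 500 bp from any IDR summit, and 1196 of these lay at divergent promoters by the same rule. These 1196 lay at 979 gene pairs and are called same-class candidates. The list of IDR peaks was identical to the 4105 strongest of the 30000 pooled candidates, so members and same-class candidates differ in signal by construction.

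Kah (Kahuli, also CG17181) is a zinc finger transcription factor of the Snail family. It was mapped by chromatin immunoprecipitation and sequencing in whole *Drosophila melanogaster* embryos aged 0 to 16 h, males and females pooled, from a transgenic line with green fluorescent protein fused to the C terminus of Kah. There was 1 group with 2 biological replicates, no other genotype or treatment, and 1 control alignment used for both. The free-text note on both libraries calls them input control, whereas the assay field names a transcription factor experiment and the antibody field names kah. Whole embryos mix tissues and stages, so a signal does not show in which cells, or in what share of them, a promoter was bound. Read depth is unknown.

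The fly genome is compact, and many of its genes are arranged head to head, with a short stretch of DNA serving as promoter in both directions. Such pairs are often broadly expressed genes. DREF binds the DNA replication-related element TATCGATA, often at promoters of this kind, and the insulator protein BEAF-32 binds CGATA, often between head-to-head genes. GAGA factor binds runs of GA, and Snail proteins bind CAGGTG and related words. Below, Snail-type words are AACAGG, its neighbour ACAGGT, and the E-box word CAGGTG, all 3 of which overlap in AACAGGTG. DRE-type words are ATCGAT and TATCGA, which overlap in TATCGATA, and GAGA-type words are GAGAGA and AGAGAG. Every word was read on both strands in a window that reached 50 bp to either side of a summit.

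Stretches between the 2 start sites are shown for 6 members to give different arrangements of the words on which the results turn, or their absence. They were chosen after their values were seen, are free of annotated exons, and are printed on the plus strand of dm6, with the minus-strand gene starting just left of the first base and the plus-strand gene just right of the last. Capitals mark Snail-type and DRE-type words on either strand, also where they lie over 50 bp from the summit and so outside the window scored. CG9117 / CG31643 (chr2L:6037903-6038116) has its summit at base 42 and a Snail-type word from base 16. CG10194 / CG18094 (chr2L:19490105-19490261) has its summit at base 45, a DRE-type word from base 7 and the joined Snail-type words from base 55. CG14879 / Manf (chr3R:16349227-16349403) has its summit at base 70, Snail-type words from base 45 and a DRE-type word from base 145.
CG9117 / CG31643: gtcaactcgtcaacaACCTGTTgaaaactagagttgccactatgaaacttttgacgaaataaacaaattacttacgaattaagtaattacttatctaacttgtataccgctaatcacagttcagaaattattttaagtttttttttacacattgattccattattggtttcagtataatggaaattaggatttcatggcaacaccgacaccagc
CG10194 / CG18094: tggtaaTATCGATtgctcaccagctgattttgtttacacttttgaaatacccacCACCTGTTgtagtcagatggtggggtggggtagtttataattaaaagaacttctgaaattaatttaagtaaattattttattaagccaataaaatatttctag
CG14879 / Manf: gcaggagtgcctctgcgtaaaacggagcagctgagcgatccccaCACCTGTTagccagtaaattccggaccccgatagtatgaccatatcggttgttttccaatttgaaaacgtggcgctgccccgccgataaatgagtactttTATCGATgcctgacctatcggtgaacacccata

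The other 3 stretches hold no Snail-type word near the summit whose base is given. RpL34a / Trmt61 (chr3R:26059268-26059495) has TATCGATA from base 36 and again from base 214, with its stronger summit at base 14. A second, weaker member summit of this pair (3R, summit 26059487, signal 208) lay near the right end of the stretch. There it was close to the second TATCGATA and to a Snail-type word from base 223. The stretch of fws, a gene of the Golgi tethering complex COG, and Lamtor3, of the lysosomal Ragulator complex (chr2L:17481030-17481230), has DRE-type words from base 1 and from base 189, at either end of the stretch, and its summit at base 95. Art3 / mRpS10 (chr3R:15229409-15229664), one of the strongest members, holds none of these words and has its summit at base 118.
RpL34a / Trmt61: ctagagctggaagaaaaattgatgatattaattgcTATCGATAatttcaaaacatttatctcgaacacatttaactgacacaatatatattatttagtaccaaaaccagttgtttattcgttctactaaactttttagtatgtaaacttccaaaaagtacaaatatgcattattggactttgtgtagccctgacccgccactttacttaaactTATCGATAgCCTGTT
fws / Lamtor3: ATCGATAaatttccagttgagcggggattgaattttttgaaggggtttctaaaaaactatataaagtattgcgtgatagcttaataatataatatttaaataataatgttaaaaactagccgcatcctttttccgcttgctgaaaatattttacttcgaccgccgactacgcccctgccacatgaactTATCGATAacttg
Art3 / mRpS10: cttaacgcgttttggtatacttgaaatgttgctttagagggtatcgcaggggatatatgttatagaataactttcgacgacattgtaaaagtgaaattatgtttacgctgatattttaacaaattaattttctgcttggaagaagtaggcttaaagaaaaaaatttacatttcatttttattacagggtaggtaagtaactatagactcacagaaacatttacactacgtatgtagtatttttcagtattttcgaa

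Signal at the members spread over a wide range and reached nearly the top of the whole list. Peak signal is given on the scale of the authors' peak caller, whose units are not stated. Over the 555 members it ran from 150.5 to 3898, with a median of 248, against a median of 248 at the 1517 one-direction promoter peaks and 222 at the 2033 IDR peaks away from promoters. The strongest member lay between Vha100-2, a subunit of the vacuolar proton pump, and Vti1b, a SNARE protein of vesicle fusion (3R, summit 18399654). It reached 3898 in the pooled list, 1987 in replicate 1 and 1901 in replicate 2, which ranked it number 5 of the 4105 IDR peaks. CG9117 / CG31643 followed with 3501 in the pooled list, 1869 in replicate 1 and 1626 in replicate 2. CG8089 / CG7544 (2R, summit 15147807) had 3420 pooled, 1697 in replicate 1 and 1722 in replicate 2. In these members the replicates lay close together.

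Other strong members joined genes of unlike functions. Oseg6, a protein of intraflagellar transport, and Rep, which escorts Rab proteins, shared a peak of 2302 (2R, summit 19491902), with 1196 in replicate 1 and 1107 in replicate 2. CG10194 / CG18094 had 2064 pooled, 930.5 in replicate 1 and 1123 in replicate 2. The peak of bocks, which encodes a LEM-domain protein of the nuclear envelope, and CG8312 (3R, summit 9591356) had 2047 pooled, 922 in replicate 1 and 1124 in replicate 2. Both of these were higher in replicate 2. The peak of Rhau and dia, which encodes a formin that assembles actin (2L, summit 20758323), had 1933 pooled, 897 in replicate 1 and 1028 in replicate 2. Art3, an arginine methyltransferase gene, and mRpS10, of the mitochondrial ribosome, shared 1869 pooled, 1037 in replicate 1 and 836 in replicate 2. The remaining members among the 12 strongest were CG13390 / CG17294, IFT43 / PICK1, CG11309 / CG7632 and mRpS23 / CenG1A, with pooled signals from 1445 to 1553. Of the 12, 5 held a Snail-type word within 50 bp of the summit and 7 did not, against 92 of all 555 members (16.6%) that held one.

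Both replicates saw nearly all members. A replicate candidate with its summit within 100 bp was found in both replicates for 524 of 555 members (94.4%), in replicate 1 only for 13 and in replicate 2 only for 18. Since the authors chose IDR peaks by agreement between these same lists, the recovery is no independent test. In the 524, the median signal was 132 in replicate 1 and 125 in replicate 2, and the log2 ratio of replicate 2 over replicate 1 had a median of -0.12 with an SD of 0.59 across peaks. At the one-direction promoter peaks its median was 0.14 with an SD of 0.60. The difference between the class medians was not tested. The 4105 strongest candidates of each replicate gave a stricter count. Of the members, 69.7% (387 of 555, exact 95% interval 65.7 to 73.5) had a summit in both, against 71.1% (1079 of 1517) of one-direction promoter peaks (odds ratio 0.935, 95% interval 0.756 to 1.16, p = 0.549 by Fisher's exact test, two-sided). With the members divided into 4 groups of about equal size by signal, it was 18.0% in the weakest group and 98.6% in the strongest. The pooled signal comes from the same 2 replicates, so this rise was fixed by construction.

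**Figure D1:**
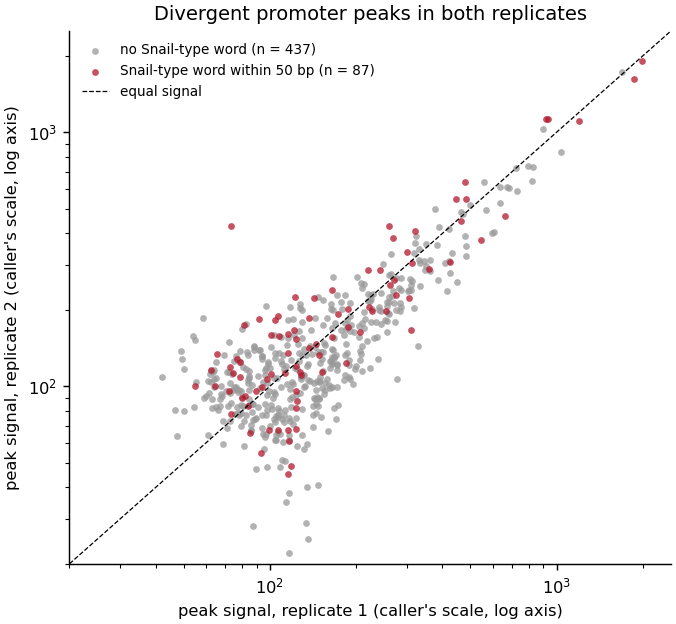
Peak signal of the 524 members matched in both replicates, replicate 1 on the horizontal and replicate 2 on the vertical log axis, on the caller's scale. Each point is a peak, red where a Snail-type word lies within 50 bp of the summit (87 peaks) and grey elsewhere (437 peaks), and the dashed line marks equal signal. Most points lie along the line, and RpL34b / CG8132, with 73.4 in replicate 1 and 429 in replicate 2, stands far above it. Values are those of the replicate candidate with the nearest summit within 100 bp.

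The replicate ratio moved with base composition in every class of IDR peak. Members of low GC (32.7% or less of the bases within 50 bp of the summit) had a median log2 ratio of -0.33, those of middle GC -0.02 and those of high GC (46.5% or more) 0.27. At one-direction promoters the same 3 classes had medians of -0.19, 0.15 and 0.39. The members were richer in low-GC windows, with 43.1% of them in the lowest class against 27.2% of one-direction promoter peaks, and their median GC was 35.6% against 43.6%. The part of base composition in the replicate difference was not tested. Among members higher in replicate 2, the widest difference was at RpL34b / CG8132, a gene of the large ribosomal subunit and its neighbour (3R, summit 9401459). It had 73.4 in replicate 1, 429 in replicate 2 and 837 in the pooled list. The same was seen for the pair of CycG, a cyclin gene, and Med, which encodes a SMAD protein (3R, summit 31610799), with 58.4 in replicate 1 and 186 in replicate 2. The second summit of CG10194 / CG18094 had 53.8 in replicate 1, 158 in replicate 2 and 403 in the pooled list. The opposite difference was largest at CG1105 / CG1965, with 135 in replicate 1 and 25 in replicate 2. Next came RPA1, which encodes a single-stranded DNA-binding protein, and Mcm2, of the replicative helicase (3R, summit 8264825), with 116 in replicate 1 and 22.1 in replicate 2. CG1407 / CG12129 had 134 in replicate 1 and 29.0 in replicate 2. Each replicate value is that of the candidate with the nearest summit within 100 bp. Whether another summit of the same peak held more signal in that replicate was not tested.

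Divergent promoters made up a larger part of the IDR list than of the remaining candidates. They held 13.5% of IDR summits (555 of 4105, exact 95% interval 12.5 to 14.6), against 4.82% of the remaining candidates (1196 of 24795, interval 4.56 to 5.10; odds ratio 3.08, 95% interval 2.77 to 3.43, p = 1.88e-83 by Fisher's exact test, two-sided). Among promoter summits alone the difference was smaller, 26.8% of 2072 IDR summits against 18.5% of 6477 remaining candidates (odds ratio 1.62, interval 1.44 to 1.81, Fisher p = 1.61e-15). Both p-values stayed below 0.05 after Benjamini-Hochberg adjustment over the 4 share tests, with the larger at 3.23e-15. Along the pooled list the share of divergent summits was 15.8% in the first 1000 candidates, 11.3% in ranks 4001 to 5000 and 2.00% in the last 1000. Taken only among promoter candidates, it was 26.4% in the first 1000, 26.6% in ranks 5001 to 6000 and 11.5% in the last 1000. The step at the IDR threshold was therefore not sharp. Against only as many of the strongest remaining candidates, the share of all summits still differed (odds ratio 1.39, Fisher p = 1.94e-06), whereas that among promoter summits did not pass the test (odds ratio 1.15, p = 0.0671). Peaks are not replicates, so these tests describe the listed regions and not new embryos.

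**Figure D2:**
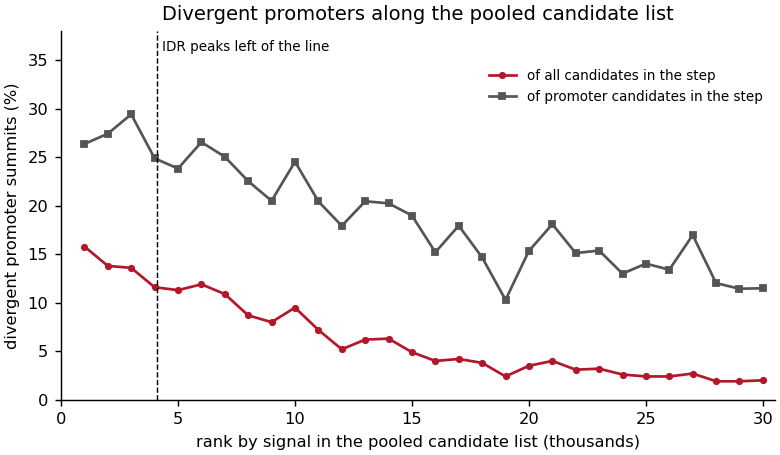
Share of summits at divergent promoters in steps of 1000 candidates of the pooled list, ordered from strongest to weakest along the horizontal axis. Circles give the share of all candidates and squares the share of promoter candidates, both in percent, and the dashed line marks the 4105 IDR peaks. The first step stands at 15.8% of all candidates and the last at 2.00%, with no jump at the line.

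Seen from the annotation, 2667 pairs of protein-coding genes had head-to-head starts within 1000 bp of each other, and 563 of them (21.1%, exact 95% interval 19.6 to 22.7) had an IDR summit within 500 bp of both starts. A further 1015 pairs had a weaker candidate and 1089 had none. Genes in such pairs had an IDR summit within 500 bp of a start more often, 27.1% (1371 of 5052), than the other protein-coding genes, 11.3% (1004 of 8916). A gene in a pair can be reached from its partner's start too, so this is a description without a test. The share of pairs with an IDR summit was 24.9% at a spacing of 100 bp or less, 24.4% at 100 to 200 bp, 32.3% at 200 to 300 bp and 26.3% at 300 to 400 bp. It was 13.9% at 500 to 600 bp and 2.07% beyond 800 bp. The stretch in which a summit can lie within 500 bp of both starts shortens as the spacing grows.

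**Figure D3:**
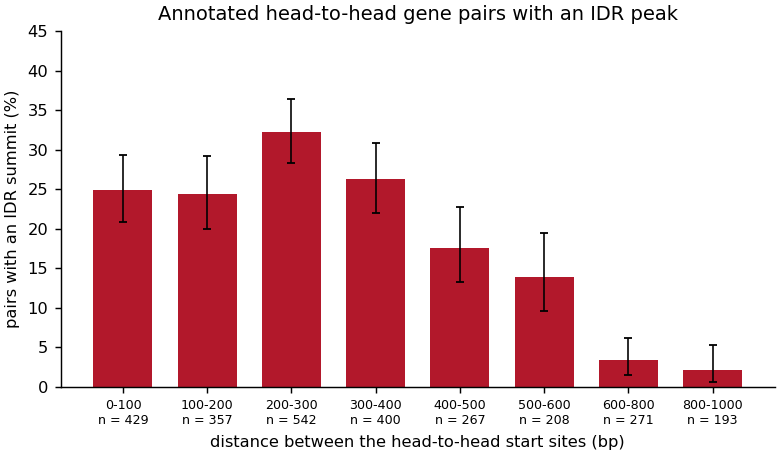
Annotated head-to-head gene pairs by the distance between their start sites (horizontal, in bp, with the number of pairs under each bar) and the percentage with an IDR summit within 500 bp of both starts (vertical). Error bars are exact 95% intervals and cover counting error only. The bar at 200 to 300 bp, at 32.3%, is the highest, and those beyond 600 bp are below 4%.

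Most members lay between the starts, in the shared promoter itself. In 535 of the 555 members (96.4%) the pair was head to head, and in 20 the 2 transcripts overlapped at their starts. The spacing of the head-to-head members had a median of 269 bp, quartiles of 178.5 and 370.5 bp and a range of 2 to 880 bp, against a median of 281 bp at same-class candidates. The summit lay between the 2 starts in 65.8% of members (365 of 555, exact 95% interval 61.7 to 69.7), against 59.4% of same-class candidates (710 of 1196; odds ratio 1.31, interval 1.07 to 1.62, Fisher p = 0.0113, and 0.0151 when adjusted over the 4 share tests). Against only the strongest remaining candidates this did not pass the test (Fisher p = 0.733). Of the 359 head-to-head summits inside the gap, 172 (47.9%) fell in the middle of 3 equal parts, against 240 of 680 (35.3%) at same-class candidates, given without a test. The nearer start was a median of 84 bp away and the farther 214 bp. It lay on the plus strand in 285 members and on the minus strand in 270. A summit within 100 bp of its nearest start was seen in 59.5% of members against 36.3% of one-direction promoter peaks. The divergent rule asks for 2 starts nearby, which shortens that distance by construction.

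The closest pairs were dpa, which encodes a helicase subunit, and didum, a myosin, 2 bp apart, with a summit signal of 174, and SerRS / CG17260, 8 bp apart, with 311. The most widely spaced was Dhc1, a dynein heavy chain gene, and Nepl12, 880 bp apart with a signal of 227, followed by CG16956 / CG42784 at 856 bp with 229 and Tsp42Eq / Tsp42Er, both tetraspanin genes, at 830 bp with 176. Signal showed no clear order with spacing: its median was 259 at a spacing of up to 100 bp, 262 at 200 to 300 bp and 231 beyond 500 bp. At 29 pairs there were 2 member summits, with a median of 201 bp between them and a range of 199 to 2433 bp. In 22 of the 29 the distance lay between 199 and 206 bp. The stronger summit had a median of 1.76 times the signal of the weaker. The widest such pair was Vha100-2 / Vti1b, where a summit of 296 lay 2433 bp from the main one, at other annotated starts of the same genes.

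Snail-type words marked the members off from the same-class candidates. Of 2084 words tested, 4 were more frequent at members, which is 0.192% of the words, and 1 was less frequent, 0.048%, by two-sided Fisher's exact tests with Benjamini-Hochberg adjusted p below 0.05. AACAGG was found at 10.8% of members (60 of 555) against 3.09% of same-class candidates (37 of 1196), an odds ratio of 3.80 with a 95% interval of 2.49 to 5.80 and an adjusted p of 7.46e-07. ACAGGT was found at 10.3% against 3.26% (odds ratio 3.40, interval 2.23 to 5.17, adjusted Fisher p = 1.26e-05). CAGGTG was found at 7.75% (43 of 555) against 3.43% (41 of 1196), an odds ratio of 2.37 (1.52 to 3.67) whose adjusted p was 0.0562. It passed the threshold with an odds ratio of 2.96 and an adjusted p of 0.000967 when windows were compared within 5 classes of GC content. The other words called were AT-rich or CG-containing. ATTTAA was found at 30.8% against 21.7% (adjusted Fisher p = 0.0325), AATAAT at 26.1% against 17.9% (adjusted p = 0.0419), and ATATCG, the less frequent one, at 2.88% against 8.19% (odds ratio 0.333, adjusted p = 0.00704).

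These calls did not all hold equally. AACAGG was the 1 word called against only the strongest remaining candidates (odds ratio 4.07, adjusted Fisher p = 0.00321), and it was called in each alternative but that with a 250 bp promoter (odds ratio 3.13, adjusted p = 0.0983). Leaving out a replicate gave 2 called words without replicate 1 and 10 without replicate 2. With GC classes, 4 words were called, namely the 3 Snail-type words and ATATCG, and the AT-rich words were not (for ATTTAA, n = 555 members, adjusted p = 0.83). ATATCG was not called in 7 of its 11 alternatives, among them that without replicate 1 (adjusted Fisher p = 0.235). The joined word AACAGGT stood at 8.11% of members (45 of 555) and 1.34% of same-class candidates (16 of 1196). Any Snail-type word stood at 16.6% of members (92 of 555, exact 95% interval 13.6 to 19.9), 7.53% of same-class candidates, 5.55% of windows at the midpoint of all 2667 annotated pairs and 7.19% of windows at all 19275 protein-coding start sites. So 463 of the 555 members held none. The words were grouped after their values were seen, so the higher share than at same-class candidates is no further test.

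**Figure D4:**
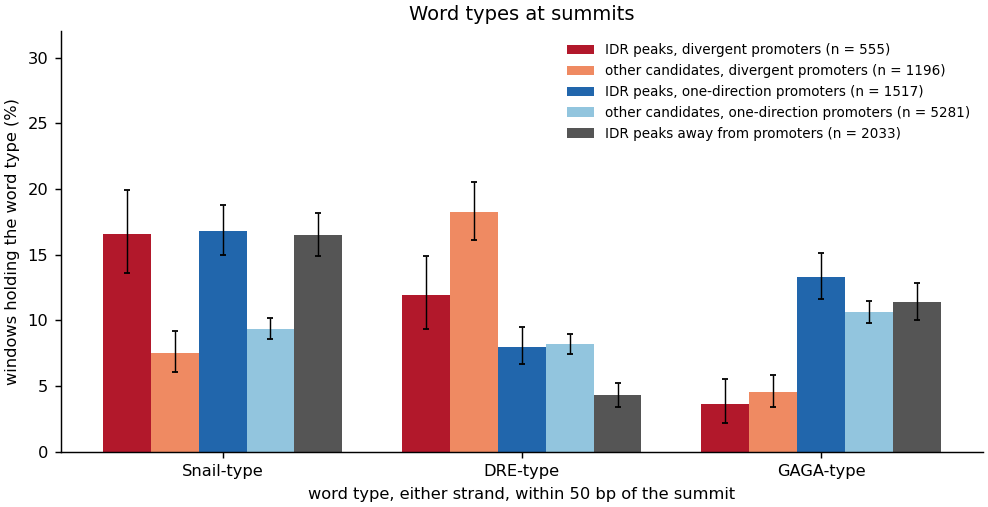
Percentage of windows within 50 bp of a summit that hold a Snail-type, DRE-type or GAGA-type word, for the 555 members, the 1196 same-class candidates, 1517 one-direction promoter IDR peaks, 5281 one-direction candidates and 2033 IDR peaks away from promoters. Error bars are exact 95% intervals. Members stand at 16.6%, 11.9% and 3.60% for the 3 types in that order. The word types were chosen after their values were seen.

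Snail-type words gathered at the summit. At members, sites of these words, overlapping ones counted once, had a density of 2.43 per kb in the 20 bp just left of the summit, 1.80 per kb in the 20 bp just right of it and 1.89 per kb at 20 to 40 bp on either side. At 40 to 60 bp it was 1.80 per kb on the left and 1.08 on the right. In the steps over 100 bp away the members' median was 0.856 per kb, with a highest step of 1.62. At same-class candidates the density was 0.585 per kb just left of the summit and 1.05 just right of it, against a median of 0.815 over 100 bp away. One-direction promoter peaks had 2.41 per kb just left and just right of the summit and 0.824 over 100 bp away. DRE-type words showed no such gathering at members, with 1.98 per kb just left of the summit, 0.721 just right of it and 2.07 per kb at 40 to 60 bp on the right, against a median of 1.80 over 100 bp away. These counts rest on 27 Snail-type sites and 22 DRE-type sites in the step just left of the summit. The words were grouped after their values near the summit were seen, so the excess there over same-class candidates is no further test. Taken singly at members, ACAGGT had 1.80 per kb just left of the summit and 1.35 just right of it, and AACAGG 1.71 and 1.26. CAGGTG had 1.17 and 0.721, against 1.08 per kb at 100 to 120 bp on the left. Members with a Snail-type word had a median pooled signal of 270.5 against 244 for those without, and a median GC of 43.1% against 33.7%. The replicates differed in the order of signal. Among members matched in both, the medians with and without a word were 125 and 134 in replicate 1, and 160 and 122 in replicate 2. In the same 4 groups by signal, from the weakest to the strongest, 15.8%, 12.2%, 15.9% and 22.3% held one.

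**Figure D5:**
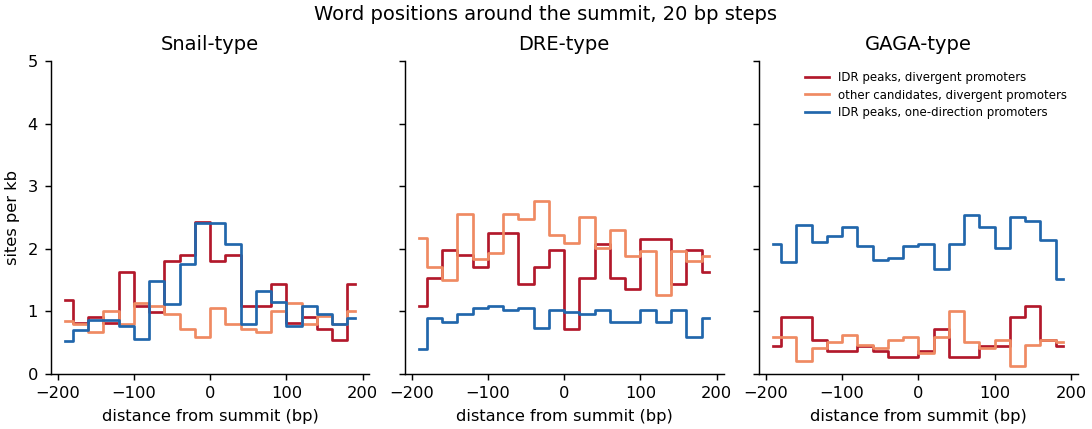
Density of word sites (sites per kb, vertical) in 20 bp steps of distance from the summit (bp, horizontal) for Snail-type, DRE-type and GAGA-type words, with members in red, same-class candidates in orange and one-direction promoter IDR peaks in blue. Snail-type words rise to 2.43 per kb at the summit of members and to 2.41 at one-direction promoter peaks. The candidates stand at 0.585 and 1.05 per kb on the left and right of the summit. The words were grouped into types after their values were seen.

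Against the IDR peaks at one-direction promoters, the members showed no called difference in Snail-type words but did in others. Among the others was ACAAGT, which was listed in 1 group with CAGGTG and ACAGGT and is given below. Any Snail-type word stood at 16.6% of members against 16.8% of one-direction peaks. CAGGTG was found at 7.75% against 10.4% (odds ratio 0.722, 95% interval 0.508 to 1.03, adjusted Fisher p = 0.36) and ACAGGT at 10.3% against 9.16% (odds ratio 1.13, interval 0.82 to 1.57, adjusted p = 0.763). Of the 2084 words, 76 were more frequent at members (3.65%) and 56 less frequent (2.69%). The 10 of smallest p were 3 GA- or GC-rich words that were less frequent and 7 words made of A and T alone that were more frequent, such as AAATAA at 36.6% against 22.5% (odds ratio 1.98, adjusted Fisher p = 2.3e-07). Without replicate 2 the words called numbered 86 in place of 132, and without replicate 1 they numbered 111. Within 5 GC classes, 11 words were called, 9 more and 2 less frequent, and 10 of these were among the 132 called without the classes. AAATAA was then not called (n = 555 members, odds ratio 1.37, adjusted p = 0.276).

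GA repeats gave the smallest p of all words between the 2 kinds of promoter peak when GC classes were not used. GAGAGA was found at 1.98% of members (11 of 555) against 9.56% of one-direction promoter peaks (145 of 1517), an odds ratio of 0.191 with a 95% interval of 0.103 to 0.356 and an adjusted p of 2.09e-07. AGAGAG was found at 2.70% against 11.9% (odds ratio 0.206, adjusted Fisher p = 7.72e-09). Both were called in every alternative run, with odds ratios of 0.263 and 0.273 within GC classes. Against same-class candidates the difference passed no test, with GAGAGA at 1.98% of members against 2.59% (odds ratio 0.76, interval 0.379 to 1.52, adjusted Fisher p = 0.959). Windows at the midpoint of all annotated pairs held either GAGA-type word in 4.01% of cases, against 3.60% of members.

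DRE-type words were more frequent at members than at one-direction promoter peaks. ATCGAT was found at 9.37% (52 of 555) against 4.81% (73 of 1517; odds ratio 2.04, 95% interval 1.41 to 2.96, adjusted Fisher p = 0.00853), and within GC classes its odds ratio was 2.24 with n = 555 members and an adjusted p of 0.00842. TATCGATA, the full element, was found at 4.50% against 1.85% (odds ratio 2.51, adjusted Fisher p = 0.0312) and CGATA at 19.8% against 14.2% (odds ratio 1.49, adjusted p = 0.0452). Neither passed with canonical transcripts only, and CGATA did not pass without replicate 1 (adjusted Fisher p = 0.0591) or without replicate 2 (0.0816). ATCGAT passed in each of these and was lost in the IDR peaks above the median signal and with words within 25 bp. Against same-class candidates the order was the other way and passed no test, with ATCGAT at 9.37% against 12.7% (odds ratio 0.71, interval 0.509 to 0.99, adjusted Fisher p = 0.556). Any DRE-type word stood at 11.9% of members, 7.98% of one-direction promoter peaks and 18.2% of same-class candidates. It stood at 16.6% of midpoint windows and at 15.8% of windows at all 19275 protein-coding start sites. Members thus lay above the one-direction peaks and below the other 3 sets. At members with such a word the summit lay between the starts in 84.8% of 66, against 63.2% of the 489 without. Both a Snail-type and a DRE-type word were held by 14 members, 2.52% of the 555 (exact 95% interval 1.39 to 4.20), as in CG10194 / CG18094 above. The share was 1.25% at same-class candidates and 1.71% at one-direction promoter peaks, and the difference was not tested.

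Other listed core promoter words did not separate the members from either set, apart from words rich in A and T. ACAAGT, one of the listed words, was found at 6.85% of members against 11.5% of one-direction promoter peaks (odds ratio 0.564, adjusted Fisher p = 0.0364). It was not called in 8 alternatives, among them those without replicate 1 (adjusted Fisher p = 0.0894) and without replicate 2 (0.105). TATAAA, the TATA box word, was found at 20.5% against 14.6% (adjusted Fisher p = 0.0328) and had an odds ratio of 1.00 within GC classes. GGTCACAC, the motif of M1BP, stood at 2.34% of members, 4.68% of same-class candidates (adjusted Fisher p = 0.443) and 1.78% of one-direction peaks (adjusted p = 0.773). The shuffled control words GTGGAC and GACGTG stood at 1.80% and 2.70% of members, with adjusted p of 0.854 or more in both comparisons.

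Ribosomal protein genes were the list with the largest share of genes at members. Of 92 genes of the cytoplasmic ribosome, 26 (28.3%) lay at a member, against 1050 of all 13968 protein-coding genes (7.52%). These were 28 peaks, of which 3 held a Snail-type and 7 a DRE-type word. In all, 55 of the 92 genes belong to a head-to-head pair, against 5052 of all 13968 protein-coding genes. An IDR summit within 500 bp of a start was seen at 68 of the 92, against 2375 of the 13968. The high share was thus not particular to divergent promoters. The strongest of the 28 peaks was RpL34b / CG8132 with a pooled signal of 837. Its nearest matched candidates had 73.4 in replicate 1 and 429 in replicate 2. RpS27 / Nup37 (3R, summit 25247491), a pair of a small-subunit gene and a nuclear pore gene, had 718 pooled, 352 in replicate 1 and 364 in replicate 2. CG4294 / RpS16 (2R, summit 22606069) had 659 pooled, 360 in replicate 1 and 289 in replicate 2, with CAGGTG near the summit. The lists were chosen by gene symbol with results of these data known, and no set test was made.

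Other housekeeping lists had smaller shares. Of the genes of the mitochondrial ribosome, 11 of 73 (15.1%) lay at members, led by mRpS10 and mRpS23 above. Splicing factor genes had 7 of 30 (23.3%), led by Nle / Sf3b1 at 481 pooled, 271 in replicate 1 and 213 in replicate 2. Aminoacyl-tRNA synthetase genes had 5 of 32 (15.6%), led by Hem / IleRS with a signal of 327. Nucleoporin genes had 3 of 21 (14.3%), and subunits of RNA polymerases and Mediator 8 of 56 (14.3%), led by CG10584 / Polr3E, whose Polr3E encodes a subunit of RNA polymerase III, with a signal of 541. Respiratory chain genes had 11 of 87 (12.6%), led by Cchl / ND-42 with a signal of 305. Coat protein and Rab genes had 6 of 44 (13.6%), led by alphaCOP / CG13919 with a signal of 424. Translation factor genes had 6 of 56 (10.7%), led by eIF4EHP, a repressor that binds the mRNA cap, with CG18428 (3R, summit 24109165; 1321 pooled, 726 in replicate 1 and 588 in replicate 2).

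Proteasome genes had 3 of 48 (6.25%), below the 7.52% of all genes. The peaks of all 3 held a Snail-type word, against 16.6% of all members. They were Rpt3R / Alg12 with 724 pooled, 320 in replicate 1 and 409 in replicate 2, dgo / Prosbeta5 with 318, and Npc1a / Prosalpha6 with 151, among the weakest members. Vacuolar proton pump genes had 4 of 33 (12.1%), in 5 peaks of which 3 held a Snail-type word. Other lists had few or none. A Snail-type word was held by 1 of 12 mitochondrial ribosome, 1 of 12 respiratory chain and 1 of 6 coat protein and Rab peaks. It was held by 0 of 7 splicing factor, 0 of 6 translation factor and 0 of 5 tRNA synthetase peaks. Nucleoporin peaks had 0 of 3, and polymerase and Mediator peaks 0 of 9. Lists of genes used in few tissues had no gene or 1 gene at members. No member lay at any of 179 odorant, gustatory and ionotropic receptor genes, of which 26 belong to a head-to-head pair. The 1 gene of 129 caught by the symbol pattern for cuticle and chorion proteins was Cp190, which encodes an insulator protein and not a chorion protein, in the pair Cp190 / CG4338 (805 pooled, 483 in replicate 1 and 327 in replicate 2). The shares also follow how many genes of a list are in a pair, 90.0% for splicing factors against 14.5% for the receptors. Among genes in a head-to-head pair, the share at a member came to 20.6% over all protein-coding genes. On that base it came to 47.3% for the cytoplasmic ribosome, 28.6% for the proton pump, 25.9% for splicing factors and 25% for the respiratory chain. It came to 24.0% for coat proteins and Rabs, 22.7% for tRNA synthetases and 22.2% for translation factors. Polymerase and Mediator subunits, at 20.5%, the mitochondrial ribosome, at 19.0%, nucleoporins, at 16.7%, and the proteasome, at 11.5%, stood below the share of all paired genes.

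At the edge of the rule, the members whose farther start was nearest to 500 bp were Max / Mettl5 at 500 bp with a signal of 179, Sec61alpha / Daxx at 497 bp with 201 and Pka-C1 / hoip at 497 bp with 189. The promoter peaks just outside were lin-52 / CG15771 at 502 bp with a signal of 615, CG14864 / Zip88E at 509 bp with 320 and CG12929 / RpL31 at 509 bp with 638. The members of lowest signal were Npc1a / Prosalpha6 with 151, glo / COX5A with 151 and Kdsr / CG11858 with 150.5. The strongest same-class candidates stood just under them. They were e(y)2 / CG11695 with 149.5, 73.9 in replicate 1 and 83.5 in replicate 2, PIG-A / Vps50 with 149.4, snRNP-U1-C / gukh with 149.1 and Exd2 / CG5281 with 149, none with a Snail-type word.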

How the data were processed

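Chromatin immunoprecipitation followed by sequencing was done on 2 biological replicates of 1 group. The deposited narrowPeak lists hold, per the deposited file listing, candidates of each replicate and of both together, each made with 1 shared control alignment, and IDR peaks derived from them. The peak signal is the value the authors deposited. The −log10 q deposited by the authors was capped, stood at the top value in all IDR peaks and was not used. Build dm6 is from the labels. No source used here names the aligner, the caller, their versions or filters.

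Start sites of protein-coding transcripts came from Ensembl release 115 and sequence from the Release 6 assembly. Coordinates are 1-based. For each summit the pair was the start on each strand with the smallest summed distance. Words (2080 strand-merged 6-mers and 4 others) were scored by presence in the window around a summit. Fisher's exact tests, two-sided, compared the shares, with Benjamini-Hochberg adjustment at 0.05 over all 2084 words, or over 4 share tests. Intervals (95%) are Wald intervals for odds ratios and, for shares, exact (Clopper-Pearson) ones. GC classes used the Mantel-Haenszel test over 5 classes. For words other than CAGGTG this alternative was added after seeing the data. Intervals cover counting error only. Summits at the same gene pair were counted separately in the tests and intervals, and such repeats were more common among same-class candidates. Scripts ran in Python 3.11.15 with scipy 1.17.1, numpy 2.4.6, pandas 2.3.3 and matplotlib 3.10.9. The word test was tried on windows of same-class candidates with words planted in them, and the formulas for shares and odds ratios on made-up counts. The sorting of peaks and the matching of summits were not tried in this way.

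The members, the 22 listed words, the 13 gene lists and the tests were chosen with earlier results of these data known. Members to name were set by rule: the 12 strongest, the 6 strongest with CAGGTG, the 3 strongest per gene list, the extremes of replicate ratio, spacing, signal and the 500 bp limit, and the strongest same-class candidates. Not all of them are named above. Words named were the listed ones and the 10 6-mers of smallest p per comparison. The 6 printed stretches, the word types, the joined words and the pairs with 2 summits were chosen after their values were seen.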

Additional observations from a re-analysis of the deposited data

How the results depend on the processing

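The share of divergent summits among all summits kept its direction and its call in all 8 alternatives, with odds ratios from 1.39 to 3.64. Among promoter summits the odds ratio was 1.15 against the strongest remaining candidates, where the call was lost, as it was for summits between the starts (65.8% of members). Recovery in both replicates, with no call in any setting, changed direction with a 250 bp promoter (odds ratio 1.02), in the IDR peaks above the median signal (1.27) and with matches within 200 bp (1.02). Median signal was 258 with a 250 bp promoter and 367 above the median IDR signal. Median spacing, 263 bp over all members, was 217 bp with a 250 bp promoter, 310 bp with 1000 bp, and 257 to 274 bp with either replicate left out. Words called against same-class candidates numbered 5, and 3 with 250 bp, 28 with 1000 bp, 2 with canonical transcripts, 1 against the strongest remaining candidates, 8 within 100 bp, and 2 to 10 with either replicate left out. CAGGTG passed against them with 1000 bp (odds ratio 2.10), head-to-head pairs only (2.54), IDR peaks above the median signal (2.85), windows of 100 bp (2.45) and GC classes (2.96). Words called against one-direction promoter peaks numbered 132, and 35 with 1000 bp, 37 above the median IDR signal, 46 within 25 bp, 257 within 100 bp, 11 with GC classes, and 86 to 111 with either replicate left out. CAGGTG had an odds ratio of 1.09 there with GC classes. The causes were not tested, though the setting above the median IDR signal holds fewer peaks. Without a replicate, the 4105 strongest candidates of the other stood in for the IDR peaks, so recovery and median signal had no value. No paired analysis was possible because there was 1 group. The depth of the libraries is unknown, so the precision of single signals is too.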

Other observations

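Members were unevenly spread over the chromosomes. The X held 10.1% of members (56 of 555), against 15.1% of annotated head-to-head pairs (403 of 2667) and 15.2% of one-direction promoter IDR peaks (231 of 1517). An IDR summit was found at 14.1% of the pairs on the X, 17.5% of those on 2R, 21.8% on 2L, 24.3% on 3L and 25.3% on 3R. Chromosome 4 had 1 member at 11 pairs. The embryos were of both sexes, and the copy number of the X in the material was not measured. These are values without a test.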
